A study of Caenorhabditis elegans with 6 samples.

Results

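The genes described here encode enzymes that make, activate, elongate, break down and release fatty acids in Caenorhabditis elegans. They were chosen by gene name from the deposited count table: all numbered elo, acs, acdh, cpt, lipl and acox genes together with fasn-1, pod-2 and hacd-1, and without acdh-1. This gave 67 of the 22416 genes with counts. By enzyme class there were 9 elongases (elo), 2 enzymes of fatty acid synthesis (pod-2 and fasn-1), 22 acyl-CoA synthetases (acs) and 6 carnitine palmitoyltransferases (cpt). There were also 12 acyl-CoA dehydrogenases (acdh), 7 acyl-CoA oxidases (acox), 8 lipases (lipl) and the 3-hydroxyacyl-CoA dehydrogenase hacd-1. Of the 67 genes, 65 passed the filter on low counts and were tested. The others were lipl-8, with 1 to 5 counts per library, and acs-23, a pseudogene with 0 to 14.

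RNA came from pools of whole worms of strain CL2006, in which a minigene of the human Abeta peptide is driven by the muscle promoter of unc-54 and the pRF4 plasmid, carrying rol-6, serves as a marker. All 6 libraries shared this genotype, a temperature of 20 °C and collection on day 6 of adulthood in the second generation on the same bacteria. The control group ate HT115 bacteria with an empty vector (EV), and the other group ate HT115 expressing RNAi against the gtr-1 3'UTR. Each group had 3 libraries, 1 in each of batches 2, 3 and 4, and 3 values in a row are given in this order throughout. The labels number the batches and do not say whether a number marks a separate culture, so the p-values reflect how much the 3 pairs differed, which may be technical.

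Fatty acids are built from malonyl-CoA by fatty acid synthase, lengthened by elongases at the endoplasmic reticulum, and linked to coenzyme A by acyl-CoA synthetases before further use. Carnitine palmitoyltransferases carry long acyl chains into mitochondria, where acyl-CoA dehydrogenases start each round of beta-oxidation. Acyl-CoA oxidases start the corresponding rounds in peroxisomes, where worms also shorten the side chains of ascaroside pheromones, and lysosomal lipases release fatty acids from stored fat. The intestine is the main site of fat storage in the worm.

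Total counts per library ran from 43067539 to 59812227, and the 67 genes took 0.51% to 0.593% of them. The RNAi target itself was not reduced: gtr-1 had 32, 16 and 12 counts with EV and 38, 26 and 11 in the other libraries, with a log2 fold change of 0.13 and a 95% interval from -0.64 to 0.89 (edgeR adjusted p = 0.886). The treated libraries are therefore called the libraries labelled gtr-1 RNAi, and each direction below rests on that label.

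Levels among the 67 genes spanned more than 3 orders of magnitude when expressed as CPM, the count scaled to library size, per kb of exon, averaged over the 6 libraries. The acyl-CoA synthetase acs-13 was at 236 CPM per kb, the elongase elo-1 at 224 and the acyl-CoA synthetase acs-4 at 220, while lipl-8 was at 0.043. In all, 18 genes lay above 50 CPM per kb and 14 below 1. Among carnitine palmitoyltransferases, cpt-1 (124 CPM per kb) and cpt-2 (60.5) were the most abundant, and cpt-3 to cpt-6 lay between 5.58 and 11.3. The 7 acyl-CoA oxidases were all low, from 0.853 for acox-1.3 to 13.4 CPM per kb for acox-3. One lipase, lipl-5, stood at 107 CPM per kb, and the other 7 lay at 14.4 or below.

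**Figure D1:**
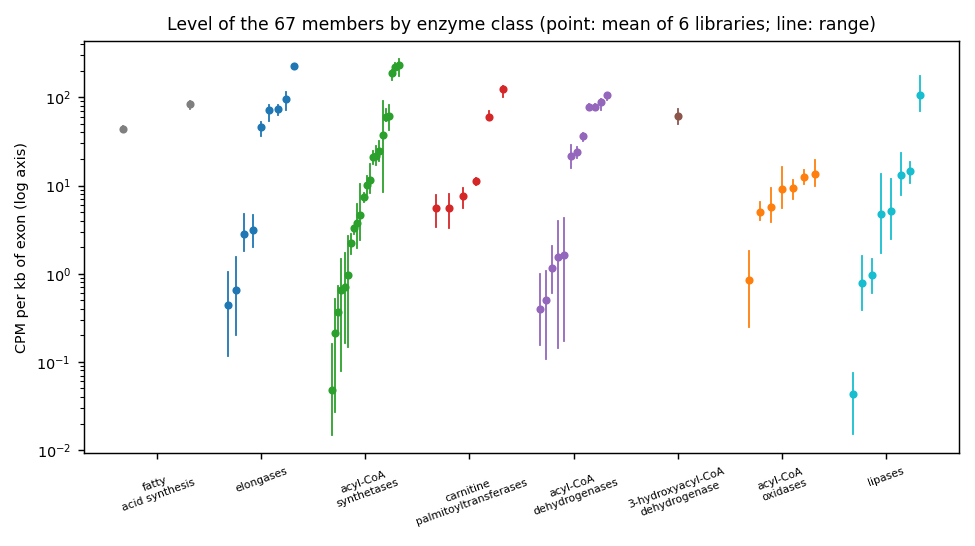
Level of each of the 67 genes in CPM per kb of exon on a log axis, by enzyme class; points are means of 6 libraries and lines run from the lowest to the highest library, leaving out libraries at 0. The acyl-CoA synthetases run from 0.0478 to 236, while no acyl-CoA oxidase exceeds 13.4.

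No gene of the set passed the edgeR quasi-likelihood test with Benjamini-Hochberg adjustment at an adjusted p under 0.05. At that threshold 0 of 65 were higher, where 0.0902% of all 15519 genes tested were, and 0 were lower, where the share of all genes was also 0%. At an unadjusted p under 0.05, 16 of the 65 (24.6%) were lower against 5.68% of all genes, and 2 (3.08%) were higher against 4.99%. By class, the 16 comprised 4 of 6 carnitine palmitoyltransferases, 3 of 7 acyl-CoA oxidases, 3 of 7 lipases, 2 of 12 acyl-CoA dehydrogenases, 2 of 21 acyl-CoA synthetases and 2 of 9 elongases, and the classes were not tested against each other. DESeq2 called 6 lower at an adjusted p under 0.05, against 0.619% of all genes, and 0 higher against 1.57%. The 6 were cpt-3, cpt-4, acox-1.2, acox-3, acox-1.5 and acs-22. The libraries of the 2 groups did not overlap for 8 genes that were lower in every library labelled gtr-1 RNAi (3.07% of all genes) and for 0 that were higher (2.92%). In all 3 batch pairs, 24 genes were lower (22.6% of all genes) and 6 higher (13.5%). The log2 fold change lay below 0 for 45 of the 65 genes, against 58.4% of all genes, and above 0 for 20, against 41.6%. Its median was -0.09 for the 65 genes and -0.03 for all genes tested. In RNA of whole worms, fewer cells of a type and less RNA per cell cannot be told apart.

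These counts depended on batch 2. Without its pair, edgeR called 5 of the genes higher and 10 lower at an adjusted p under 0.05. Without only its EV library the counts were 4 and 9, and without only its library labelled gtr-1 RNAi they were 2 and 8. Calls over all genes multiplied as well. There were 745 higher and 420 lower of 15147 without the pair, 679 and 340 of 15597 without its EV library, and 561 and 249 of 15673 without its library labelled gtr-1 RNAi. Leaving out the batch 3 pair gave 0 higher and 3 lower, namely cpt-3, acox-1.2 and acox-3, where 170 higher and 81 lower of 16177 genes were called. Leaving out the batch 4 pair gave none in either direction. By unadjusted p under 0.05, 2 were higher and 11 lower, and the share of all genes in that fit is not given. In that fit 0 of all 16134 genes were called higher and 0 lower. Values without the batch 2 pair, given below for single genes, rest on the remaining pairs and on fewer residual degrees of freedom. edgeR called none of these single genes without the batch 3 pair or without the batch 4 pair.

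**Figure D2:**
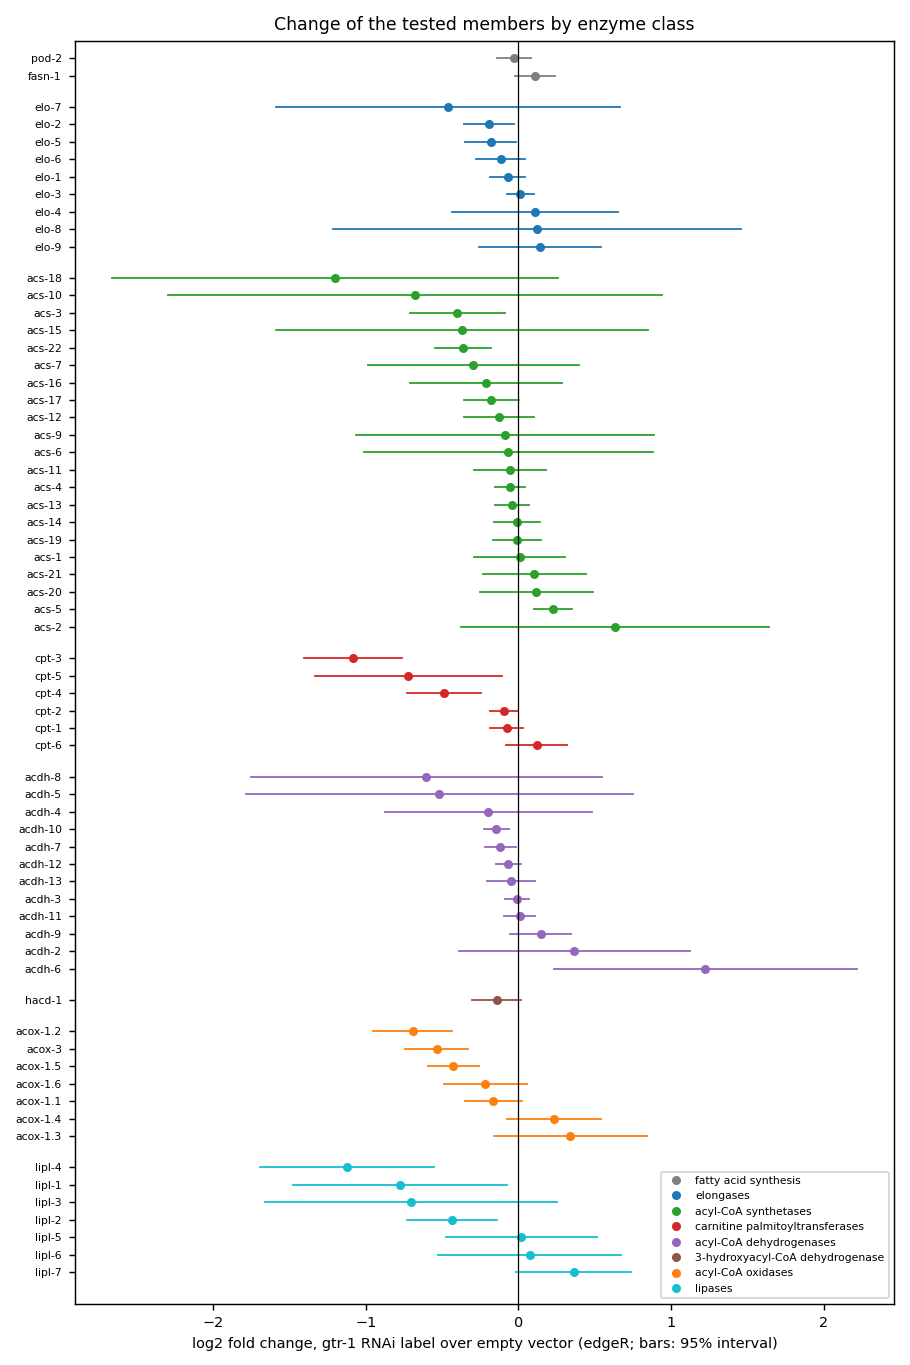
The log2 fold change of the 65 tested genes in the libraries labelled gtr-1 RNAi over EV, with 95% intervals from edgeR, coloured by enzyme class. The intervals of cpt-3, cpt-4, cpt-5, acox-1.2, acox-3, acox-1.5, lipl-4, lipl-1, lipl-2 and acs-22 lie below 0, among others, and those of abundant genes such as acs-4 and elo-3 are narrow and include 0.

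Among the carnitine palmitoyltransferases, the scarcer cpt-3, cpt-4 and cpt-5 were lower, while cpt-6, also scarce, was not. The abundant cpt-1 and cpt-2 differed little, although cpt-2 was among the 4 of 6 lower at an unadjusted p under 0.05. The level of cpt-3 (WBGene00021703, chromosome III, 2082819 to 2088314 in WBcel235) was 15.9, 18.2 and 17.5 CPM with EV and 9.08, 7.47 and 7.80 CPM with the gtr-1 RNAi label. All EV libraries lay above all labelled libraries, and the means were 17.2 ± 1.18 and 8.12 ± 0.853 CPM (SD, n = 3 each), a 2.12-fold lower level. The log2 fold change of cpt-3 was -1.08 ± 0.13 (SE, edgeR adjusted p = 0.0762), the smallest adjusted p of the whole set, and DESeq2 gave an adjusted p of 4.1e-08.

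For cpt-4 the levels were 20.5, 22.02 and 19.7 CPM with EV against 16.7, 15.2 and 12.7 CPM. The groups did not overlap, and the log2 fold change was -0.49 ± 0.10 (SE, edgeR adjusted p = 0.189; DESeq2 0.0185). The cpt-5 gene had 12.7, 16.9 and 17.6 CPM with EV and 12.5, 8.81 and 7.68 CPM with the label. Its groups also did not overlap, but the batch 2 pair hardly differed: its log2 differences by batch were -0.03, -0.94 and -1.19. Over the 3 pairs cpt-5 was at -0.72 ± 0.24 (SE, edgeR adjusted p = 0.409), and without the batch 2 pair at -1.07 with an adjusted p of 0.0018.

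The genes for the well-known mitochondrial pair of enzymes had intervals close to 0. cpt-1, the outer membrane enzyme that commits long chains to mitochondrial oxidation, was at 316, 380 and 369 CPM with EV and 286, 360 and 368 CPM with the label. Its log2 fold change had a 95% interval from -0.18 to 0.03 (edgeR adjusted p = 0.567). The inner membrane partner cpt-2 had an interval from -0.18 to just below 0 (log2 fold change -0.09, adjusted p = 0.465). cpt-6 was the only gene of the class above 0, at 0.12 ± 0.08 (SE, adjusted p = 0.616). The median log2 fold change of the class was -0.29, and in batches 2, 3 and 4 it was -0.10, -0.31 and -0.39.

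**Figure D3:**
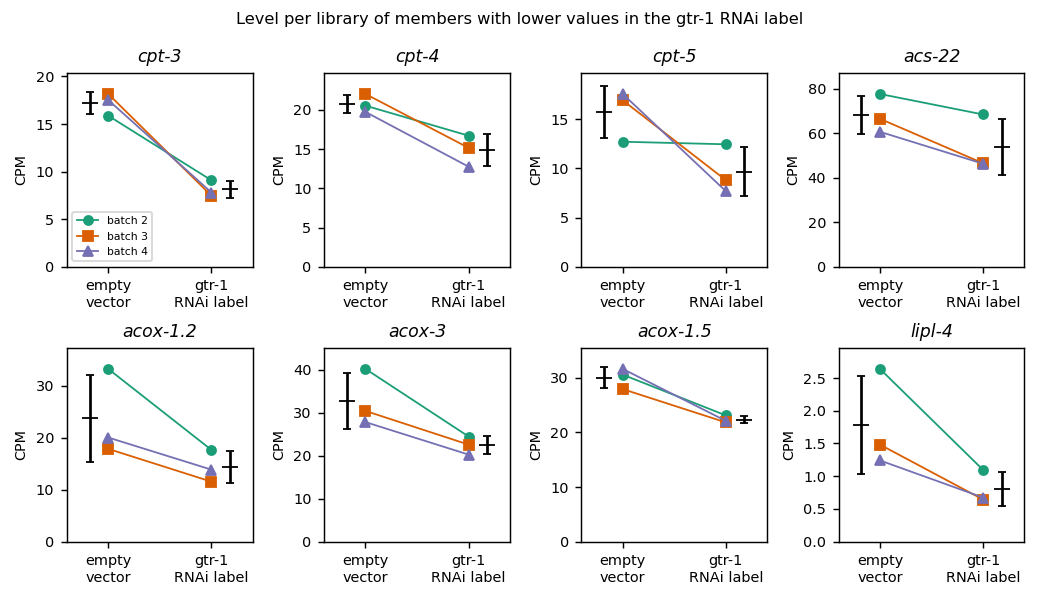
CPM in each library of 8 genes with lower values in the libraries labelled gtr-1 RNAi; lines join the libraries of a batch, and black marks give the mean and SD of 3 libraries. The lines descend in every panel, that of cpt-5 in batch 2 hardly at all, and groups overlap only for acs-22, whose batch 2 library with the label (68.4 CPM) lies above 2 EV libraries.

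Of the 7 acyl-CoA oxidases 3, acox-1.2, acox-3 and acox-1.5, were lower without overlap between the groups, against 3.07% of all genes. The other 4 overlapped. Oxidases of this family catalyse the first step of peroxisomal side-chain shortening in ascaroside synthesis. acox-1.2 (WBGene00008565, chromosome I, 12942280 to 12946588) was at 33.2, 17.8 and 20.0 CPM with EV and 17.6, 11.5 and 13.8 CPM with the label. The highest labelled library, from batch 2, lay just under the lowest EV library, from batch 3. The log2 fold change of acox-1.2 was -0.69 ± 0.10 (SE), with an edgeR adjusted p of 0.108 and a DESeq2 adjusted p of 0.000365. acox-3 (WBGene00019060, chromosome IV, 6245358 to 6248492), the most abundant oxidase, had 40.2, 30.4 and 27.8 CPM against 24.5, 22.6 and 20.3 CPM. Its log2 fold change was -0.54 ± 0.08 (SE, edgeR adjusted p = 0.118; DESeq2 0.0018).

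acox-1.5 (WBGene00008167, chromosome III, 9586618 to 9592192) varied least between libraries of a group. It was at 30.5, 27.9 and 31.6 CPM with EV and 23.1, 21.8 and 22.1 CPM with the label, and its log2 fold change was -0.43 ± 0.07 (SE, edgeR adjusted p = 0.126; DESeq2 0.0073). acox-1.1 had 29.1, 23.6 and 21.4 CPM against 28.1, 20.9 and 17.7 CPM. Each pair was lower, and the 95% interval of its log2 fold change ran from -0.35 to 0.02 (edgeR adjusted p = 0.509). The genes acox-1.1, acox-1.2, acox-1.3 and acox-1.4 follow one another on the plus strand of chromosome I within 12938555 to 12954003, with 34 to 343 bases between neighbours. Their log2 fold changes were -0.16, -0.69, 0.34 and 0.23 in this order, and the differences between them were not tested. The treatment of reads shared between such copies is not stated in the processing notes, so these 4 values are less certain. The median log2 fold change of the oxidases was -0.22, with -0.39, -0.18 and -0.27 in the 3 batches.

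Of the 7 lipases tested, lipl-4, lipl-2 and lipl-1 were lower in every pair, as were 22.6% of all genes. lipl-3 was lower in batches 2 and 3. lipl-4 encodes a lysosomal acid lipase known from long-lived germline-less worms. Its counts were 145, 61 and 59 with EV and 59, 36 and 35 with the label, or 2.64, 1.48 and 1.24 CPM against 1.096, 0.643 and 0.674 CPM. The groups did not overlap, and the log2 fold change was -1.12 ± 0.22 (SE, edgeR adjusted p = 0.196; DESeq2 0.299). The lowest EV library lay only slightly above the highest labelled one, and counts this low carry a wide counting error.

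lipl-1 and lipl-3 are lysosomal lipases induced by fasting, and both were highest in the EV library of batch 2. lipl-1 was at 15.8, 4.40 and 7.05 CPM with EV and 5.39, 3.31 and 5.57 CPM with the label (log2 fold change -0.77 ± 0.28, SE, edgeR adjusted p = 0.428). Its log2 differences were -1.54, -0.41 and -0.34 by batch. lipl-3 was at 19.3, 3.96 and 3.95 CPM with EV and 6.22, 2.45 and 4.78 CPM with the label. That is lower in batches 2 and 3 and higher in batch 4, and its 95% interval ran from -1.66 to 0.25 (log2, adjusted p = 0.561). lipl-2 had 29.9, 11.5 and 16.9 CPM against 18.9, 10.1 and 12.4 CPM, with -0.44 ± 0.11 as its log2 fold change (SE, adjusted p = 0.315).

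The abundant lipl-5 went in opposite directions by batch, with 219, 110.3 and 87.3 CPM against 147, 126 and 118 CPM. Its log2 fold change was 0.02 ± 0.19 (SE) over all pairs, and without the batch 2 pair it was 0.32 with an edgeR adjusted p of 0.0279. lipl-7, chosen for mention after its values were seen, was at 20.8, 14.7 and 13.9 CPM against 20.7, 24.0 and 18.1 CPM (log2 fold change 0.36 ± 0.15, SE, adjusted p = 0.48), and without batch 2 it was at 0.55 (adjusted p = 0.0196). The median of the lipases was -0.44 over all pairs and -0.18 without the batch 2 pair.

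Of 21 acyl-CoA synthetases tested, acs-22 and acs-3 were lower and acs-5 higher at an unadjusted p under 0.05. Over all genes 5.68% were lower and 4.99% higher at that threshold. acs-22, a homolog of mammalian fatty acid transport proteins, was at 77.6, 66.4 and 60.6 CPM with EV and 68.4, 46.5 and 46.2 CPM with the label. Every pair was lower, and the log2 fold change was -0.36 ± 0.07 (SE, edgeR adjusted p = 0.196; DESeq2 0.019). Without the batch 2 pair acs-22 was at -0.45 with an edgeR adjusted p of 0.0042. acs-3 was at 12.9, 9.77 and 4.82 CPM against 9.03, 7.09 and 4.14 CPM (log2 fold change -0.40 ± 0.12, SE, adjusted p = 0.376). acs-5 was higher in every pair, with 51.8, 38.3 and 36.2 CPM against 59.6, 47.0 and 41.2 CPM (log2 fold change 0.23 ± 0.05, SE, adjusted p = 0.227). acs-17 was lower in every pair, at -0.18 ± 0.07 (log2 fold change, SE, adjusted p = 0.469).

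acs-2 encodes a mitochondrial acyl-CoA synthetase that the nuclear receptor NHR-49 induces on fasting, and its level differed most between batches among abundant genes. It was at 189, 17.7 and 21.6 CPM with EV and 151, 61.2 and 31.4 CPM with the label. Batch 2 stood far above the others in both groups, and the pairs disagreed in sign, with log2 differences of -0.33, 1.78 and 0.54. The log2 fold change of acs-2 over all pairs was 0.63, with an interval from -0.37 to 1.64 (edgeR adjusted p = 0.604), and without the batch 2 pair it was 1.17 (adjusted p = 0.0246). The 3 synthetases with the highest levels were close to 0: acs-13 had a 95% interval from -0.16 to 0.07, acs-4 from -0.15 to 0.04 and acs-19, an acetyl-CoA synthetase, from -0.16 to 0.15 (log2 fold change). The last 2 were chosen for mention after their values were seen.

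The 12 acyl-CoA dehydrogenases had a median log2 fold change of -0.06 and ran from -0.60 (acdh-8) to 1.23 (acdh-6). acdh-10, annotated as a probable medium-chain enzyme, was at 112, 115 and 112 CPM with EV and 102, 103 and 102 CPM with the label. The groups did not overlap, although the difference was small (log2 fold change -0.14 ± 0.03, SE, edgeR adjusted p = 0.269). acdh-7 is the neighbour of acdh-10 on the same strand of chromosome X. It had 105, 113.7 and 111 CPM against 98.2, 99.7 and 105 CPM (log2 fold change -0.12 ± 0.04, SE, adjusted p = 0.413). acdh-12, the dehydrogenase with the highest CPM, was at -0.07 ± 0.03 (SE, adjusted p = 0.528), and acdh-3, the highest per length and chosen after its values were seen, had an interval from -0.09 to 0.07. acdh-6 was the only gene of the class higher at an unadjusted p under 0.05, on counts of 224, 18 and 9 with EV and 284, 85 and 41 with the label. Its log2 fold change was 1.23 ± 0.39 (SE, adjusted p = 0.394), and without the batch 2 pair 1.89 (adjusted p = 0.0139). hacd-1, a predicted 3-hydroxyacyl-CoA dehydrogenase of a later step, was at 75.6, 61.7 and 58.2 CPM against 63.3, 62.2 and 51.3 CPM (log2 fold change -0.14 ± 0.06, SE, adjusted p = 0.502).

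The enzymes of fatty acid synthesis had values close to 0. pod-2, the acetyl-CoA carboxylase that makes malonyl-CoA, was at 507, 630 and 612 CPM with EV and 522, 599 and 589 CPM with the label, with an interval from -0.14 to 0.08 (log2, edgeR adjusted p = 0.821). fasn-1, the fatty acid synthase, had 353, 339 and 365 CPM against 404, 375 and 361 CPM, with an interval from -0.02 to 0.24 (adjusted p = 0.526). Both intervals exclude a change of 1.5-fold. The same held for 35 of the 65 genes, or 53.8%, against 53.7% of all genes tested.

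Among the 9 elongases, elo-1, elo-2 and elo-5 were lower in every pair, as were 22.6% of all genes. For elo-1 the log2 differences were -0.17, -0.03 and -0.01. elo-2, which elongates palmitate, was at 54.4, 53.3 and 46.3 CPM against 45.5, 51.9 and 38.2 CPM (log2 fold change -0.19 ± 0.06, SE, edgeR adjusted p = 0.413). elo-5, which makes branched-chain fatty acids, was at 76.4, 71.4 and 62.8 CPM against 74.3, 63.6 and 49.7 CPM (-0.18 ± 0.07, SE, adjusted p = 0.436), and without the batch 2 pair at -0.25 (adjusted p = 0.0392). elo-6, a further elongase of branched chains, was at -0.12 ± 0.06 and elo-1, which lengthens polyunsaturated chains, at -0.07 ± 0.05 (log2 fold change, SE). elo-3 had an interval from -0.08 to 0.10. In all, 5 elongases lay below 0 and 4 above, with a median of -0.07.

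Many of these genes differed between batches in both groups. Both batch 2 libraries lay above all 4 others for 32 of the 65 genes (49.2%, against 34.6% of all genes tested) and below them for 12 (18.5% against 31.1%). The mean of batch 2 was over 2 times that of batches 3 and 4 for 19 genes, or 29.2%, against 15.6% of all genes. They included acs-2 (5.16 times), acdh-6 (6.37 times), lipl-3 (3.38 times) and lipl-1 (2.08 times). None of the carnitine palmitoyltransferases was among the 32, and for cpt-3 the ratio of batch 2 to the others was 0.98. Several scarce genes, named after their values were seen, were alike in profile: acs-18, acs-10, acdh-8, acdh-5 and elo-7 were highest in batch 2 with the label and lowest in batch 4 with the label. The acs-18 level, for example, was 2.99, 0.948 and 1.03 CPM with EV and 3.27, 0.250 and 0.173 CPM with the label. None of the 5 reached an unadjusted p under 0.05 over the 3 pairs, but without the batch 2 pair edgeR called acs-18 lower (log2 fold change -2.21, adjusted p = 0.0108) and acs-10 lower (-1.71, adjusted p = 0.0246).

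**Figure D4:**
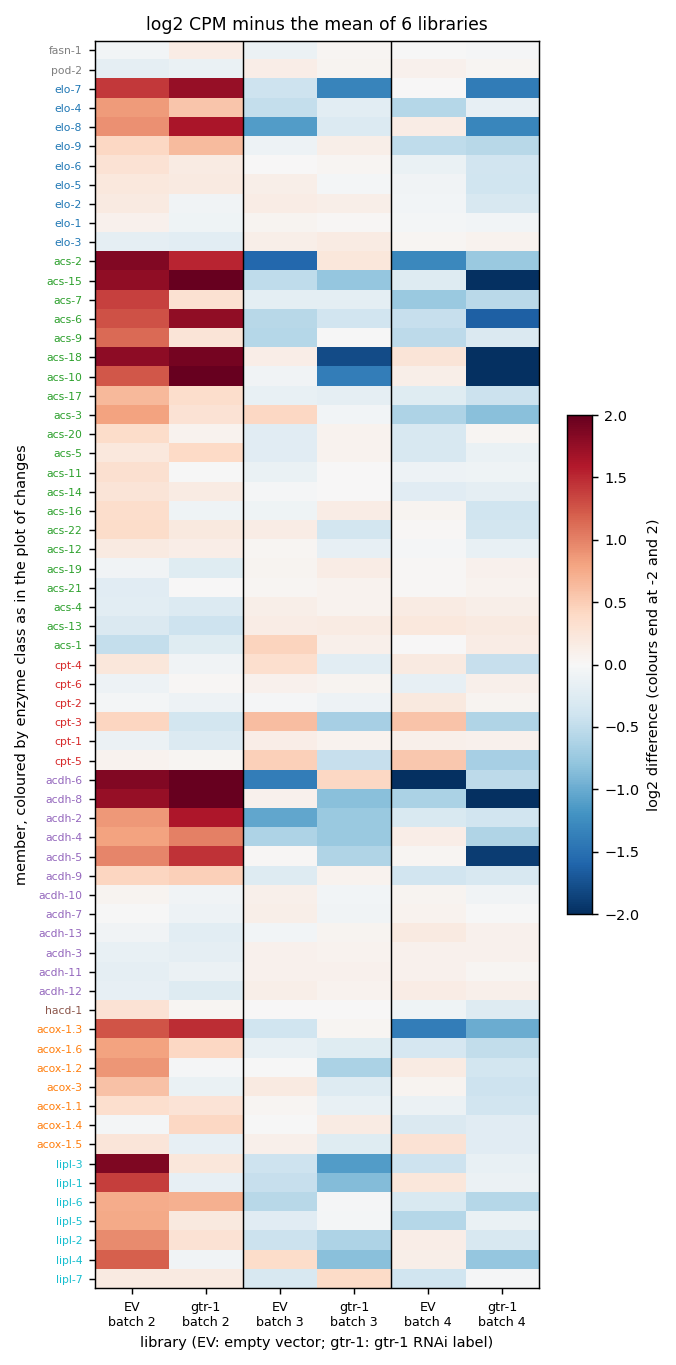
The log2 CPM of each tested gene minus its mean over the 6 libraries, with libraries ordered by batch and genes by enzyme class. The batch 2 columns are red for acs-2, acdh-6, acs-18 and further scarce genes, while cpt-3 alternates between EV and the label in each batch and cpt-5 in batches 3 and 4.

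Markers of tissues differed between the same libraries, and their part in these results was not tested. The summed level of 13 sperm markers was 53.0, 30.99 and 36.0 CPM with EV and 70.2, 25.2 and 23.1 CPM with the label, so that the batch 2 library with the label was highest and the batch 4 library with the label lowest, as for acs-18. Of the 11 sperm markers tested 9 lay below 0, where 58.4% of all genes did. Of these 9, 1 was lower at an unadjusted p under 0.05, against 5.68% of all genes. By batch pair 10, 2 and 1 of the 11 lay above 0, where 5805, 7869 and 7014 of all 15519 genes did. The sum over 11 hypodermis markers, among them rol-6, which the transgene also carries, was 1172, 437 and 395 CPM with EV and 1064, 659 and 455 CPM with the label. Of the 11, 10 lay above 0, where 41.6% of all genes did. Of these 10, 2 were higher at an unadjusted p under 0.05, against 4.99% of all genes. By batch pair 4, 11 and 9 of the 11 lay above 0. DESeq2 called 1 of them higher at an adjusted p under 0.05, against 1.57% of all genes. The 15 germline and oocyte markers were lowest in batch 2, at 11433, 16398 and 17047 CPM with EV and 10371, 15997 and 16950.5 CPM with the label. Over the 3 pairs all 15 lay below 0, where 58.4% of all genes did. Of these 15, 2 were lower at an unadjusted p under 0.05, against 5.68% of all genes. By batch pair 0, 8 and 9 of the 15 lay above 0, with median log2 differences of -0.155, 0.004 and 0.013. Only in batch 2 were all 15 lower. The summed level of the 11 intestine markers in the table was 2845, 2235 and 1995 CPM with EV and 3467, 2894 and 2530 CPM with the label. The largest single contributor in every library was asp-1, at 1328, 743 and 753 CPM with EV and 1735, 1277 and 1114 CPM with the label. By batch pair 5, 9 and 9 of the 11 lay above 0, with median log2 differences of -0.08, 0.32 and 0.16. Over the 3 pairs 9 lay above 0, where 41.6% of all genes did. At an unadjusted p under 0.05 there were 3 higher and 1 lower, against 4.99% and 5.68% of all genes. At an adjusted p under 0.05 edgeR called 0 of them and DESeq2 3, all higher: vha-6, asp-1 and act-5 (1.57% of all genes). The 12 body wall muscle markers all lay below 0, where 58.4% of all genes did. Of these 12, 2 were lower at an unadjusted p under 0.05, against 5.68% of all genes. Their sums were 5229, 4164 and 3907 CPM with EV against 4765, 4315 and 3066 CPM with the label. By batch pair 0, 8 and 0 of the 12 lay above 0. DESeq2 called 1 of them lower at an adjusted p under 0.05, against 0.619% of all genes. Among the 11 neuron markers 8 lay below 0, where 58.4% of all genes did, and the median was -0.02. By batch pair 4, 9 and 1 of the 11 lay above 0. No marker was at 0 in all libraries, and 2 sperm markers did not pass the filter on low counts.

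Other genes of the pathway gave a mixed picture. Of 15 genes for the later steps of beta-oxidation, 12 lay below 0, where 58.4% of all genes did. By unadjusted p under 0.05, 5 were lower and 1 higher, against 5.68% and 4.99% of all genes. Neither edgeR nor DESeq2 called any of them at an adjusted p under 0.05. daf-22, the thiolase that ends the peroxisomal round, had 45.3, 27.1 and 22.3 CPM against 34.3, 24.4 and 18.4 CPM (log2 fold change -0.28 ± 0.07, SE, edgeR adjusted p = 0.314). dhs-28, which acts in the step before, was at -0.15 ± 0.04 and ech-1.1, an enoyl-CoA hydratase gene with 3.39 CPM or less, at -0.65 ± 0.18 (log2 fold change, SE). Of 16 genes for peroxisome biogenesis and transport, 11 also lay below 0, against the same 58.4%. By unadjusted p under 0.05, 1 was higher and 0 lower, against 4.99% and 5.68% of all genes. The higher one was pmp-1 (log2 fold change 0.32 ± 0.10, SE, edgeR adjusted p = 0.376). prx-6 and pmp-4 were at -0.28 ± 0.12 and -0.30 ± 0.13 (log2 fold change, SE).

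Intracellular lipid-binding proteins, which carry fatty acids, were in part at higher levels with the label. Of the 9 genes 4 were higher and 0 lower by unadjusted p, against 4.99% and 5.68% of all genes. At an adjusted p under 0.05 edgeR called 0 and DESeq2 3, all higher (1.57% of all genes). lbp-2 was at 116, 106 and 114.3 CPM with EV and 198, 224 and 176 CPM with the label, without overlap (log2 fold change 0.82 ± 0.09, SE, edgeR adjusted p = 0.0762; DESeq2 2.4e-16). lbp-3 was at 0.56 ± 0.07 (log2 fold change, SE, edgeR adjusted p = 0.0848). lbp-8, which carries lipid signals from lysosomes downstream of lipl-4, was at 0.182, 0.972 and 0.715 CPM against 1.08, 2.86 and 1.93 CPM (log2 fold change 1.77 ± 0.30, SE, edgeR adjusted p = 0.145).

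Of 22 regulators of fatty acid genes, 13 lay above 0 (41.6% of all genes), and edgeR and DESeq2 called none at an adjusted p under 0.05. By unadjusted p under 0.05, 1 was higher and 1 lower, against 4.99% and 5.68% of all genes. The higher one was hlh-11, a transcriptional repressor (0.25 ± 0.06, SE, edgeR adjusted p = 0.296), and the lower one aak-1, a catalytic subunit of AMP-activated kinase (-0.11 ± 0.04, adjusted p = 0.428). daf-16 was at 0.07 ± 0.03 (log2 fold change, SE). Among 7 genes of lipid droplets and neutral lipid, 0 passed an unadjusted p under 0.05, and the droplet protein gene plin-1 was at -0.06 ± 0.04 (SE), with fitm-2 at 0.07. dgat-2 was at -0.31 with an interval from -1.02 to 0.40, and its pairs disagreed in sign, with log2 differences of 0.54, -0.71 and -0.75. Of the 3 partners of the elongases, the dehydratase gene hpo-8 was at 0.10 ± 0.04, let-767 at -0.06 ± 0.03 and art-1 at 0.04 ± 0.03 (log2 fold change, SE).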

How the data were processed

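mRNA libraries were made with a stranded kit, per the labels' protocols. Per the submitters' processing notes, the tools were cutadapt 2.10, TopHat2 2.1.1, DESeq2 1.36.0 and HTSeq 2.01, on build WBcel235. Whether strand was used in counting was not stated there. The authors deposited whole-number counts per gene, used for all values here. Their deposited normalized signal (count over 1 size factor per library) and batch-corrected values of another kind were not used. Counts were fitted with edgeR 4.0.16 (R 4.3.3): filterByExpr with a minimum count of 10 (15519 genes), TMM, and the quasi-likelihood test with batch as a block. This leaves 2 residual degrees of freedom, with 3.16 prior ones. Refits without a pair or a library leave fewer residual ones, so their p-values rest on less. P-values were adjusted by Benjamini-Hochberg over all genes tested. The standard error is the log2 fold change over the root of F. CPM use TMM library sizes, and differences per pair use log2 CPM with a prior count of 2. DESeq2 1.42.0 was an alternative. The fit was tested on simulated data.

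Groups and pairs come from the titles and batch labels. To check the pairing, each library's departure from its group's mean was correlated across genes: r was 0.71 for the batch 2 pair, 0.47 for batch 3 and 0.66 for batch 4, and -0.71 to 0.52 between batches. The 0.52 joined the batch 3 EV library to the batch 4 labelled library, so the check does not single out the batch 3 pair. Departures within a group cancel out, so negative values between batches are partly built in. Within a group no library copied another, since chi-square per degree of freedom was at least 18.5. Libraries of different groups were not compared in this way. The members, lists, tests and alternatives were chosen with earlier results of these data known. Genes named are those past the threshold, up to 4 per class with the smallest p among those with 1 sign in all pairs, the member with the highest CPM of each class, and a fixed list of well-studied members; up to 3 genes were named per further list. Outside this rule, cpt-6, acox-1.3 and acox-1.4 were chosen after their values were seen. Exon lengths and coordinates are from Ensembl release 115 of WBcel235, in which all 67 genes were found. It places exons of another gene over part of 16 of them, among them elo-5, acs-22, acs-13, pod-2 and lipl-3, whose counts are less certain. The precision of a count depends on depth.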

Additional observations from a re-analysis of the deposited data

How the results depend on the processing

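With 3 pairs and 2 residual degrees of freedom, the number of genes past the threshold varied between fits while signs mostly held. At an adjusted p under 0.05 the 65 genes gave 0 higher and 0 lower; lower genes numbered 6 by the DESeq2 Wald test, 2 with DESeq2 size factors in edgeR, 2 with no filter on low counts, 0 with a minimum count of 50 and 1 at an adjusted p under 0.1, and 0 were higher in each. Over all genes, the calls numbered 244 higher and 96 lower by the Wald test, 132 and 69 with size factors, 123 and 42 with no filter, and 6 and 0 with a minimum count of 50. Leaving out a batch pair or a single library gave 0 to 5 higher and 0 to 10 lower, where 0 to 745 higher and 0 to 420 lower were called over all genes. Without the replicate block the counts were 0 and 0, where 1 higher and 0 lower of 15519 genes were called. At an unadjusted p under 0.05 they were 0 higher and 7 lower, against 2 and 16 with it. Leaving out pairs or libraries gave 1 to 6 higher and 10 to 20 lower at that unadjusted threshold. Counts over all genes at that threshold are not given for any of these refits. Their unadjusted counts therefore cannot be judged against a share of all genes. The class medians stayed within 1 SD of their values by pair in every fit, except that of the acyl-CoA synthetases, -0.07 over all pairs and -0.1546 to -0.026 with a pair or library left out; it was lowest without the batch 3 library labelled gtr-1 RNAi. Of 448 refits of the 32 named genes, 438 kept the sign; the exceptions were lipl-5, elo-3 and pod-2, none of them past the threshold there. A refit brought a call in 42 cases. The cause of these differences was not tested.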
